A study of Homo sapiens with 6 samples.

Results

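The kallikrein-related peptidases are secreted serine proteases whose genes lie side by side on the long arm of human chromosome 19. They were measured here in 21NT cells, a human breast cancer cell line with the features of a non-invasive, early mammary tumor. The genes *KLK5* to *KLK14* were chosen by symbol, 10 in all. Of these, 9 were analyzed here, among 20824 genes in the table, and *KLK12* was not analysed here. Polyadenylated RNA was sequenced from 3 lines with 2 libraries each. The EV line carried an empty pcDNA3.1 vector, the TBX3iso1 line carried the same vector with isoform 1 of the T-box transcription factor TBX3, and the TBX3iso2 line carried it with isoform 2. No dose or time course was part of the design. All 3 lines were selected and kept in G418, in a serum-containing medium with insulin, EGF and hydrocortisone, and each line was a pool of stably transfected clones. Neither the labels nor the methods say whether the 2 libraries of a line came from separate cultures, so the p-values below cover the spread between these libraries, which may be technical.

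Kallikreins are made as inactive precursors and are switched on by other proteases or by one another. In the outer layers of the skin, KLK5, KLK7 and KLK14 form a cascade that cuts the proteins holding dead cells together, and the inhibitor encoded by *SPINK5* holds it in check. In the breast the same genes are expressed by epithelial cells, several respond to steroid hormones, and *KLK10* was first isolated as a gene that is silenced in breast cancer lines. Levels are given in RPKM, which divides the reads of a gene by the length of its transcript and by library size, so they can be set side by side between genes. Fold changes are on the log2(RPKM + 0.1) scale. A gene is called differentially expressed below at a limma adjusted p below 0.05 (Benjamini-Hochberg over all 12805 genes tested, those with a mean of at least 0.5 RPKM) and a change over 1.5-fold.

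The libraries held 43176600 to 54512400 alignments. *TBX3* itself stood at 8.38 ± 0.199 RPKM in EV, 12.3 ± 1.23 in TBX3iso1 and 16.5 ± 1.41 in TBX3iso2 (SD, n = 2). Its log2 fold change was 0.54 in TBX3iso1, under 1.5-fold (limma adjusted p = 0.00378; without TBX3iso1 replicate 2, 0.64 and adjusted p = 0.00425), and 0.97 in TBX3iso2 (adjusted p = 0.000257). These values are for the gene as a whole and do not separate the isoforms. For these transfectants the paper itself reported higher transcript of each isoform by RT-qPCR with isoform-specific primers, and more total TBX3 protein by western blot. All 8 epithelial markers on the list passed the filter, and their summed level ran from 2368 to 3139 RPKM over the 6 libraries. Of 8 fibroblast markers 1 passed, *COL1A1*, with summed levels of 4.73 to 5.01 RPKM in EV, 8.19 to 8.84 in TBX3iso1 and 7.20 to 7.62 in TBX3iso2. The 6 blood markers held *CD68* and *CD14* above the filter, with sums of 52.6 to 54.8 RPKM in EV, 36.5 to 36.8 in TBX3iso1 and 36.2 to 36.7 in TBX3iso2, while *PTPRC*, which defines blood cells, stayed at or under 0.0102 RPKM. Of 5 endothelial markers only *PECAM1* passed (sums of 7.41 to 7.77 RPKM in EV, 1.42 to 1.49 in TBX3iso1 and 1.32 to 1.49 in TBX3iso2), and *CDH5* and *VWF* stayed at or under 0.0830 RPKM. The part of these marker differences in the kallikrein levels was not tested.

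On the GRCh37 assembly, which the study names as hg19, *KLK5* to *KLK14* occupy chr19:51446559-51587502, a stretch of 140.9 kb in which all 10 genes are on the minus strand. The first 6 of them, *KLK5*, *KLK6*, *KLK7*, *KLK8*, *KLK9* and *KLK10*, fill chr19:51446559-51523431, or 76.9 kb. Exons overlap in places. *KLK8* and *KLK9* share 204 exon bases, and a protein-coding read-through gene on the same strand (ENSG00000269741) shares 1390 of the 1443 exon bases of *KLK9* and 747 of the 1865 of *KLK8*. Noncoding genes on the opposite strand overlap 202 exon bases of *KLK5*, 401 of *KLK6* and 240 of *KLK10*. How the counting divided such reads is not given in the sources used here, so the levels of *KLK8* and *KLK9* in particular may not be independent of each other.

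TBX3 binds DNA through its T-box domain, which recognizes sites that hold the letters AGGTGT. The stretch from 250 bases before to 50 bases after the transcription start was searched for these letters on both strands, the other strand reading ACACCT, in RefSeq promoters of GRCh38.p14. Of the 10 genes 9 matched a promoter in the table, *KLK12* among them. *KLK8* had no promoter there and was not searched. Of the 9 searched, 2 held the letters, *KLK11* and *KLK14*. Of all genes with a promoter in that table, 13.7% held them, and among all 35116 promoters 11.4%. A longer form, GGTGTGA, which shares its first 5 letters with the end of the shorter one and was also searched on the other strand as TCACACC, was in 4.20% of these genes and in 0 of the 9. The upstream stretches of 3 genes are printed 5′ to 3′ on the minus strand of GRCh38.p14, each ending at the base before a RefSeq start: *KLK7*, whose level differed between the isoform lines, *KLK5*, whose level fell in both lines, and *KLK14*, which held the letters, with ACACCT in capitals.
KLK5, chr19:50953039-50953288: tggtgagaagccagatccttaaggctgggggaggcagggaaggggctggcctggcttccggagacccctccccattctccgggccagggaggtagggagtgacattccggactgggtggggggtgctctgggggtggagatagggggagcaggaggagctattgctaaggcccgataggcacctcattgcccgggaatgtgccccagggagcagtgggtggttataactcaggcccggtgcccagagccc
KLK7, chr19:50983918-50984167: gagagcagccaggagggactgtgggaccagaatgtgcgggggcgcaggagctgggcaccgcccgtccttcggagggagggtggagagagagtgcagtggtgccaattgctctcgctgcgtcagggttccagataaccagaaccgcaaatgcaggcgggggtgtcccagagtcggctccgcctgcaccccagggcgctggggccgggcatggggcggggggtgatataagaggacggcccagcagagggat
KLK14, chr19:51082857-51083106: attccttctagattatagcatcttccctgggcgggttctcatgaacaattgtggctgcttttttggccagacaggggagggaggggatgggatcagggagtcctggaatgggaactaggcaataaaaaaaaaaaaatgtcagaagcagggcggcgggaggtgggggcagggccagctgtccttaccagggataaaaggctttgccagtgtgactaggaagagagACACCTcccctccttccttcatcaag
The capitals in the *KLK14* stretch begin 26 bases before the start used for the printed stretch. *KLK14* has 3 starts among these promoters. From another of them the same letters lie 5 bases after the start, within the transcribed part, and the remaining start had no match. In *KLK11* the letters lie 29 bases after the start, within the transcribed part. A match in these windows is a description of the letters alone, and no binding was measured here. The study itself mapped TBX3 binding by chromatin immunoprecipitation on promoter arrays, and those data were not analysed here.

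In EV cells 6 of the 9 genes were expressed well above the filter and the other 3 were near or below it. *KLK6*, a trypsin-like enzyme also known as neurosin, stood far above the rest at 1633 ± 12.6 RPKM (SD, n = 2), the fifth highest mean of all 20824 genes. *KLK5* followed at 182 ± 1.59 RPKM, *KLK8* at 66.3 ± 1.66, *KLK10* at 49.9 ± 0.186, *KLK7* at 35.4 ± 1.29 and *KLK9* at 30.4 ± 0.110. *KLK14* (0.627 ± 0.151 RPKM), *KLK13* and *KLK11* closed the order. No pair of neighbors in this order overlapped between the EV libraries. The summed level of the 9 genes was 1998 ± 16.7 RPKM, of which *KLK6* made up 81.8%.

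In both isoform lines the summed level was lower. Each construct was carried by a single line, so an isoform effect cannot be told apart from a difference between the transfected pools. It was 946 ± 44.7 RPKM in TBX3iso1, or 47.3% of EV, and 780 ± 43.7 RPKM in TBX3iso2, or 39.0% of EV. In bulk RNA, fewer cells expressing a gene and less RNA per cell cannot be told apart. *KLK6* made up 89.7% of the sum in TBX3iso1 and 88.8% in TBX3iso2, and *KLK5* and *KLK7* to *KLK10* each kept a smaller share of their EV level than *KLK6* did. In TBX3iso1 the order became *KLK6*, *KLK5*, *KLK10*, *KLK7*, *KLK8*, *KLK9* and *KLK14*, with overlapping libraries for *KLK7* and *KLK8*. In TBX3iso2 it was *KLK6*, *KLK5*, *KLK10*, *KLK8*, *KLK9*, *KLK7* and *KLK14*, with overlapping libraries for *KLK8* and *KLK9*. *KLK11* and *KLK13* were last in both lines and overlapped each other.

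**Figure D1:**
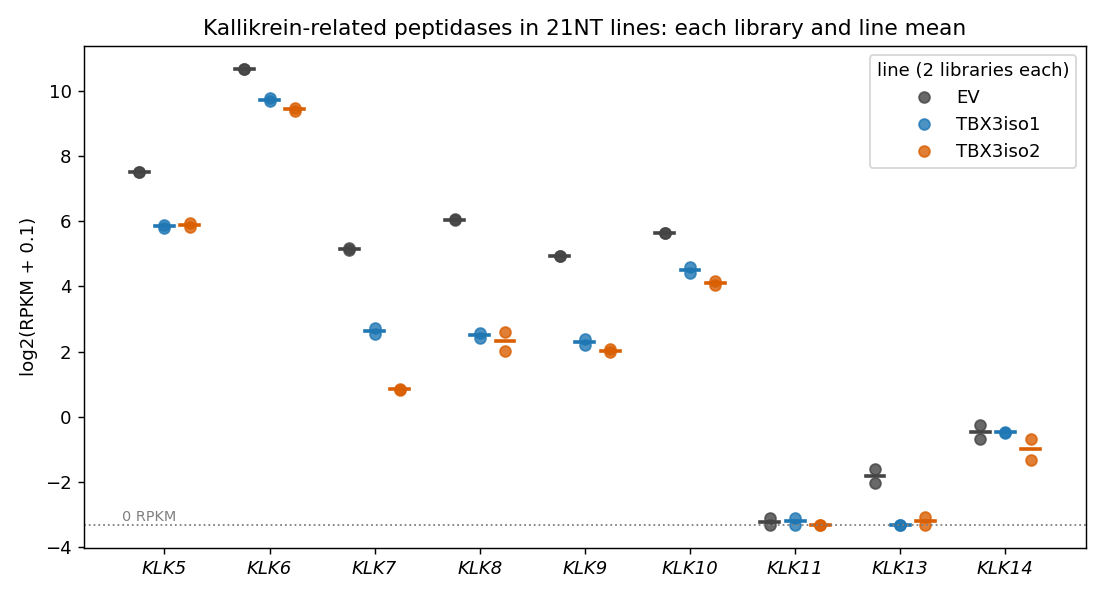
Level of each of the 9 genes, as log2(RPKM + 0.1), in the 2 libraries (points) and the mean (bars) of EV, TBX3iso1 and TBX3iso2 cells; the dotted line marks 0 RPKM. For *KLK5* to *KLK10* both EV libraries sit above all 4 isoform libraries, and *KLK7* is the gene with the widest gap between the TBX3iso1 and TBX3iso2 libraries.

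Of the 7 genes that passed the filter, 6 were differentially expressed and lower in TBX3iso1 than in EV, where 14.1% of all genes tested were called lower. The same 6 were lower in TBX3iso2, where 12.3% of all genes tested were called lower. These 6, *KLK5* to *KLK10*, were also the ones lower with both isoforms, a pattern seen in 8.97% of all genes tested. Both comparisons use the same EV libraries, so they are not independent. The libraries of EV and of each isoform line did not overlap for any of the 6, which was the case, in the lower direction, for 44.1% of all genes tested in TBX3iso1 and 37.2% in TBX3iso2. *KLK14* was not called in either line. With 2 libraries against 2, an exact permutation test of a single gene cannot give a two-sided p under 0.333, so the calls rest on the limma fit across all genes.

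*KLK5* encodes a trypsin-like enzyme that can activate itself and other kallikreins. Its level was 181 and 183 RPKM in the EV libraries, 55.1 and 59.5 in TBX3iso1 and 56.4 and 61.3 in TBX3iso2. The isoform libraries overlapped each other and lay below both EV libraries, at 31.5% and 32.4% of the EV mean. The log2 fold change was −1.66 (95% CI −1.85 to −1.48; limma adjusted p = 1.01e-05) in TBX3iso1 and −1.63 (adjusted p = 1.09e-05) in TBX3iso2. The isoform lines differed by 0.04 (95% CI −0.15 to 0.23; limma adjusted p = 0.796).

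*KLK7* encodes a chymotrypsin-like enzyme that KLK5 can activate and that cuts the adhesion proteins of cornified cells. It stood at 34.4 and 36.3 RPKM in EV, 5.74 and 6.52 in TBX3iso1, and 1.72 and 1.66 in TBX3iso2. The 3 lines did not overlap, with EV highest and TBX3iso2 lowest. The mean was 5.77-fold lower than EV in TBX3iso1 and 20.9-fold lower in TBX3iso2. On the log2 scale the changes were −2.51 (SE 0.0931; limma adjusted p = 4.31e-06) and −4.31 (SE 0.0931; adjusted p = 4.13e-07). The latter was the 9th most negative of the 12805 changes in that comparison. TBX3iso2 was lower than TBX3iso1 by a log2 change of −1.80 (95% CI −2.01 to −1.58; limma adjusted p = 6.53e-05), and *KLK7* was the 1 member of the 7 tested that was differentially expressed between the isoform lines, where 2.82% of all genes tested were called lower and 6.29% in either direction. The ratio of *KLK5* to *KLK7* RPKM went from 5.14 ± 0.142 in EV to 9.36 ± 0.341 in TBX3iso1 and 34.9 ± 2.92 in TBX3iso2 (SD, n = 2).

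*KLK8*, which encodes the trypsin-like enzyme neuropsin, lost the largest share of its EV level among the 6 genes in TBX3iso1. It stood at 65.1 and 67.4 RPKM in EV, 5.27 and 5.86 in TBX3iso1, and 3.98 and 5.99 in TBX3iso2. The isoform libraries overlapped each other, and the 2 TBX3iso2 libraries enclosed both TBX3iso1 values. The isoform means were 8.40% and 7.53% of EV. The log2 fold changes were −3.55 (95% CI −3.94 to −3.16; limma adjusted p = 9.50e-06) and −3.73 (adjusted p = 9.31e-06), each the 18th most negative of its comparison. The isoform lines differed by −0.18 (95% CI −0.57 to 0.21; limma adjusted p = 0.514).

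*KLK9*, the neighbor of *KLK8*, stood at 30.4 and 30.3 RPKM in EV, 4.48 and 5.07 in TBX3iso1, and 3.87 and 4.10 in TBX3iso2. Its 3 lines did not overlap. The means were 15.7% and 13.1% of EV, with log2 fold changes of −2.65 (limma adjusted p = 3.03e-06) and −2.90 (adjusted p = 2.77e-06). Between the isoform lines the change was −0.25 (95% CI −0.46 to −0.04; limma adjusted p = 0.103). The ratio of *KLK8* to *KLK9* RPKM was 2.18 ± 0.0625 in EV, 1.17 ± 0.0135 in TBX3iso1 and 1.25 ± 0.307 in TBX3iso2 (SD, n = 2), so the listed levels did not keep a fixed proportion. The part of the shared exons and of the read-through gene in this ratio was not tested. From the steps between RPKM values, *KLK9* rested on 1936 and 1519 whole reads in EV, 263 and 289 in TBX3iso1 and 229 and 203 in TBX3iso2.

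*KLK6* and *KLK10* had the smallest fold changes of the 6 in both lines. *KLK6* stood at 1625 and 1642 RPKM in EV, 822 and 876 in TBX3iso1, and 666 and 719 in TBX3iso2, with no overlap between lines. It kept 52.0% of its EV level in TBX3iso1 and 42.4% in TBX3iso2, with log2 fold changes of −0.95 (95% CI −1.24 to −0.65; limma adjusted p = 0.000877) and −1.24 (adjusted p = 0.000247). Even so, its mean ranked 29 in TBX3iso1 and 44 in TBX3iso2 among all genes. The change between the isoform lines was −0.29 (limma adjusted p = 0.160).

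*KLK10*, the gene silenced in many breast cancer lines, stood at 50.0 and 49.8 RPKM in EV, 21.4 and 23.9 in TBX3iso1, and 16.2 and 18.0 in TBX3iso2. The lines did not overlap. It kept 45.4% and 34.3% of its EV level, with log2 fold changes of −1.14 (limma adjusted p = 6.95e-05) and −1.54 (adjusted p = 1.89e-05). TBX3iso2 was lower than TBX3iso1 by −0.40 (limma adjusted p = 0.0212), less than the 1.5-fold set for a call. Altogether 5 of the 7 genes tested, *KLK6*, *KLK7*, *KLK9*, *KLK10* and *KLK14*, had both TBX3iso2 libraries below both TBX3iso1 libraries, as did 20.1% of all genes tested.

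**Figure D2:**
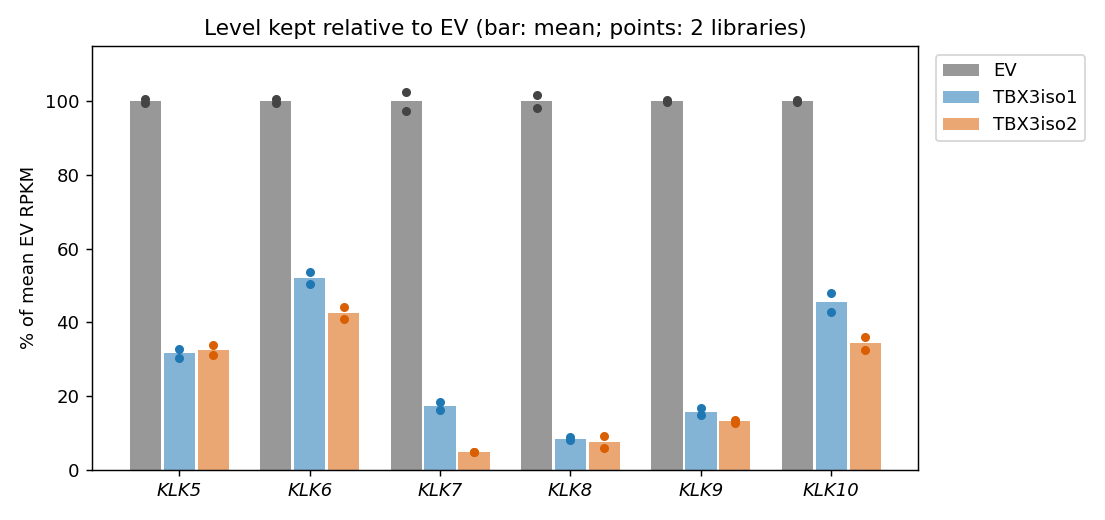
Level of *KLK5* to *KLK10* as a percentage of the mean EV level in RPKM; bars are line means and points the 2 libraries of each line. *KLK6* kept 52.0% and 42.4% of EV, *KLK8* 8.40% and 7.53%, and *KLK7* 17.3% in TBX3iso1 but 4.78% in TBX3iso2.

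The remaining 3 genes were at the edge of detection. *KLK14*, another trypsin-like enzyme of the skin cascade, stood at 0.733 and 0.520 RPKM in EV, 0.608 and 0.625 in TBX3iso1, and 0.302 and 0.526 in TBX3iso2, on 13 to 34 reads a library. EV overlapped both isoform lines. The log2 fold change was −0.00 in TBX3iso1 (95% CI −0.60 to 0.59; limma adjusted p = 0.991) and −0.52 in TBX3iso2 (95% CI −1.11 to 0.07; adjusted p = 0.133), intervals that include changes of up to 1.5-fold or more. Without TBX3iso2 replicate 2 the latter became −0.84 with a limma adjusted p of 0.0283, so 1 library decides that call.

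*KLK13* was under the filter and was not tested. It was listed at 0.144 and 0.228 RPKM in EV, at 0 in both TBX3iso1 libraries, and at 0.0193 and 0 in TBX3iso2. These values correspond to 8 and 10 reads in EV, 0 and 0 in TBX3iso1, and 1 and 0 in TBX3iso2. With the 0 reads of TBX3iso1 set at the limit of 3 reads that a count of 0 allows over the line, EV was at least 6.10-fold higher. Against the single read of TBX3iso2, EV was 17.2-fold higher, with an exact 95% interval of 2.71 to 716 for counting error only. Fitted without the filter, *KLK13* had limma adjusted p-values of 0.00598 and 0.00724 in the 2 comparisons. *KLK11* had 1 read in 1 EV library and 1 in 1 TBX3iso1 library, and no fold was taken.

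The change was compared with that of other kallikrein genes and of the genes on either side. A list of 7 other kallikrein genes, which also holds *KLKB1*, the plasma kallikrein gene that lies outside this cluster, had 6 analyzed and 0 above the filter. *KLK4*, which lies next to *KLK5*, had 9 and 14 reads in EV, 0 and 2 in TBX3iso1 and 2 and 3 in TBX3iso2. *KLK1*, *KLK2* and *KLK15* had 1 to 3 reads over all 6 libraries. Of the 10 neighbors on either side of the cluster, 5 were tested, and limma called 0 in TBX3iso1, or 1 where a TBX3iso2 library was left out. In TBX3iso1, 2 of the 5 had an unadjusted p under 0.05, *C19orf48* and *CD33*, and both also passed the adjusted threshold but changed by less than 1.5-fold. *CD33* stood at −0.43 in TBX3iso1 (limma adjusted p = 0.0151) and was called lower in TBX3iso2 (−0.93; adjusted p = 0.000448), and without TBX3iso2 replicate 2 the neighbors called numbered 3. *C19orf48*, the nearest tested gene before the family, had log2 fold changes of 0.44 and 0.42, under 1.5-fold (limma adjusted p = 0.0126 and 0.0143). *CTU1*, the nearest after *KLK14*, had −0.30 and −0.27 (adjusted p = 0.146 and 0.193).

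Among proteases known to activate kallikrein precursors, a list of 7 genes with 4 tested, 3 were lower in both lines and none was higher, with median log2 fold changes of −0.99 and −0.87 against −0.05 and −0.00 over all genes tested. Of all genes tested, 7.46% were called higher in TBX3iso1 and 8.94% in TBX3iso2, the background for the lists that follow. *HPN*, which encodes the membrane protease hepsin, fell from 2.57 ± 0.304 RPKM to 0.321 ± 0.0437 in TBX3iso1 and 0.439 ± 0.0389 in TBX3iso2 (limma log2 fold changes −2.66 and −2.30, adjusted p = 3.45e-05 and 6.29e-05). Both isoform means were under 0.5 RPKM, so *HPN* passed the filter only through EV, which favors a lower call. With a filter at 2 RPKM, 2 genes of the list were tested, and 1 was called in each line, lower. *PRSS8*, which encodes prostasin, changed by −0.73 and −1.02 (adjusted p = 0.00100 and 0.000213). *TMPRSS2* changed by −1.24 and −0.73 (adjusted p = 0.00103 and 0.0108), the latter not called without EV replicate 2 (−0.61, adjusted p = 0.0929) or with quantile normalization (−0.55). With a pseudocount of 1 RPKM *TMPRSS2* was under 1.5-fold in both lines (−0.58 and −0.37). Each of these left 2 genes of the list called. *ST14*, which encodes matriptase, was the 1 tested gene of the list that was not called, at −0.17 and −0.46.

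Of 14 inhibitor genes 8 were tested, and they moved in both directions. In TBX3iso1 2 were higher and 2 lower, in TBX3iso2 1 was higher and 2 were lower, and the medians were −0.10 and −0.35. *SERPINA3*, which encodes antichymotrypsin, fell from 29.1 ± 1.06 RPKM to 5.13 ± 0.0821 and 6.51 ± 0.201 (−2.48 and −2.14; limma adjusted p = 2.38e-06 and 4.39e-06). *SLPI*, a secreted leukocyte protease inhibitor, was lower at −0.69 and −1.26 (adjusted p = 0.00440 and 0.000275), the first not called without EV replicate 2 (−0.61), without TBX3iso1 replicate 1 (−0.57) or without moderation of the variances (adjusted p = 0.0836). *PI3*, which encodes elafin, was higher in TBX3iso1 by 1.20 (limma adjusted p = 0.000475) and stood at −0.42 in TBX3iso2. *SERPINA5*, the protein C inhibitor gene, was higher by 0.62 and 0.92 (limma adjusted p = 0.0478 and 0.0103), and neither was called without EV replicate 1 (0.31 and 0.61), with a pseudocount of 1 RPKM (0.30 and 0.48) or without moderation of the variances (adjusted p = 0.184 and 0.0959). The *SERPINA5* call in TBX3iso1 was lost in 7 of 15 alternatives, among them those without TBX3iso1 replicate 1 (limma adjusted p = 0.0989) or replicate 2 (adjusted p = 0.131). *SPINK5*, the skin kallikrein inhibitor, was at or under 0.0132 RPKM in every library.

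Of 15 genes for kallikrein substrates and for the protease-activated receptors that kallikreins can cleave, 7 were tested. In TBX3iso1 *CDH1*, which encodes E-cadherin, was the 1 called, at −0.70 (limma adjusted p = 0.00148). In TBX3iso2 the receptor gene *F2RL1* was the 1 called, at 0.61 (limma adjusted p = 0.00188), and it was under 1.5-fold without TBX3iso2 replicate 1 (0.48) or with a pseudocount of 1 RPKM (0.57). *CDH1* was called in TBX3iso2 as well without TBX3iso2 replicate 1 or with quantile normalization (−0.63 in both). Between the isoform lines *F2RL1* (0.83; limma adjusted p = 0.00215) and *F2R* (0.94; adjusted p = 0.00485), both receptor genes, were higher in TBX3iso2, where 3.47% of all genes tested were called higher. The medians of the list, −0.04 and 0.01, were close to those of all genes. *CDSN*, *DSG1* and *DSC1*, whose products KLK5 and KLK7 cut in skin, stood at or under 0.0456 RPKM.

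The cornification genes, a list of 22 from the skin program in which *KLK5* and *KLK7* act, split between the isoforms. Of 13 tested, 7 were higher and 2 lower in TBX3iso1, with a median of 0.69, whereas 0 were higher and 6 lower in TBX3iso2, with a median of −0.61. The filter favored genes high in TBX3iso1. *SPRR2D* (0.279, 2.10 and 0.119 RPKM in EV, TBX3iso1 and TBX3iso2) and *IVL* (0.316, 1.86 and 0.211) passed it only through that line. So did *SPRR2A* (0.561, 2.28 and 0.293) and *SPRR3* (0.543, 2.08 and 0.103), whose mean over the other lines was under 0.5 RPKM. Their higher calls in TBX3iso1 are therefore no independent support for a split. With a filter at 2 RPKM, 6 genes were tested. In TBX3iso1 3 were then called, 2 of them lower, and in TBX3iso2 3 were called, all lower. Between the isoform lines 9 of the 13 were lower in TBX3iso2. *CASP14*, a caspase of terminally differentiating keratinocytes, was lower in both lines, at −2.18 and −3.51 (limma adjusted p = 2.74e-05 and 4.40e-06). The cornified envelope genes *SPRR2D*, *TGM5* and *IVL* were higher in TBX3iso1, by 2.53, 2.38 and 2.24 (limma adjusted p = 0.000102, 4.06e-05 and 0.000234). In TBX3iso2, *SPRR2D* was lower at −0.80 (limma adjusted p = 0.0163) while *TGM5* (−0.11) and *IVL* (−0.45) were not called. The *SPRR2D* call in TBX3iso2 was not kept without EV replicate 1, EV replicate 2 or TBX3iso2 replicate 2 (−0.84, −0.77 and −0.64), with a pseudocount of 1 RPKM (−0.19) or without moderation (limma adjusted p = 0.0771), and *IVL* was called without TBX3iso2 replicate 1 (−0.74). Of 7 steroid receptors 3 were tested, and *ESR1*, the estrogen receptor gene, was lower in both lines (−1.03 and −0.79; limma adjusted p = 0.00238 and 0.00757), the second not called without EV replicate 1 (−0.73), without TBX3iso2 replicate 2 (−0.56) or with a pseudocount of 1 RPKM (−0.54). Without moderation *ESR1* was called in neither line (limma adjusted p = 0.0544 and 0.0800). *NR3C1*, the glucocorticoid receptor gene, was at 0.01 and −0.03.

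**Figure D3:**
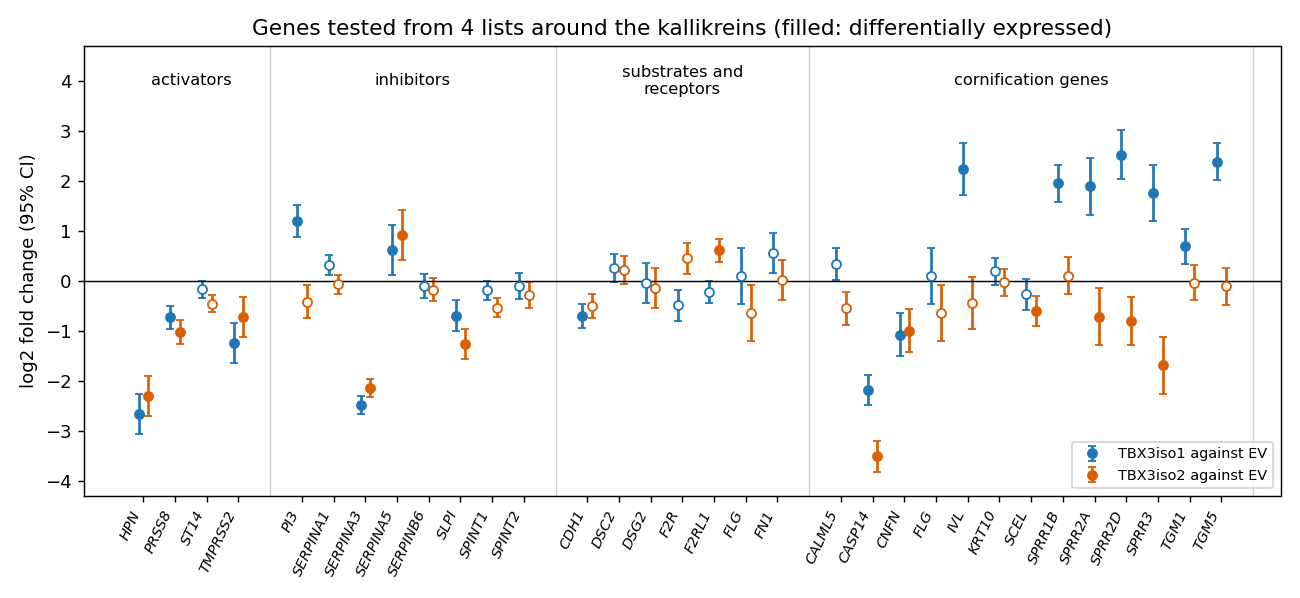
Log2 fold change against EV, with its 95% CI from limma, of the tested genes from the lists of activators, inhibitors, substrates with receptors, and cornification genes; filled symbols mark differential expression. *HPN* and *SERPINA3* lie below −2 in both comparisons, while *SPRR2D*, *TGM5* and *IVL* lie above 2 in TBX3iso1 alone. *HPN* passed the filter only through EV, and *SPRR2D* and *IVL* only through TBX3iso1.

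*KLK7* and *KLK8* had the widest range of line means, 4.31 and 3.73 on the log2 scale; the genes with the most similar pattern over the 6 libraries were found by the distance between centered log2 profiles. For *KLK7* the nearest was *CASP14* at a distance of 0.869, followed by *SEPP1* at 1.04 and *UNC5B* at 1.16. *CASP14* stood at 21.6, 4.67 and 1.81 RPKM in EV, TBX3iso1 and TBX3iso2. For *KLK8* the nearest were *CLIC3* at 0.495, *LINC01419* at 0.522 and *PCSK1N* at 0.536. *CLIC3* stood at 16.0, 1.04 and 1.20 RPKM.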

How the data were processed

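The authors made stranded mRNA libraries, aligned paired-end reads with TopHat in Galaxy to hg19, and deposited RPKM values from Partek Genomics Suite; tool versions, gene annotation and the use of strand in counting are not given in the sources used here. RPKM is not a count, so limma 3.58.1 (R 4.3.3) was fitted to log2(RPKM + 0.1) with 1 mean per line over all 6 libraries and 3 residual degrees of freedom, limited to genes averaging 0.5 RPKM or more, in 3 comparisons, two-sided and with Benjamini-Hochberg adjustment. The script was tested on simulated data. Groups came from the sample titles. The members, gene lists and tests were chosen with earlier results of these data known. The genes named were all members, *TBX3*, up to 4 called genes per list with the largest change, 5 neighbors on each side and 3 genes of like pattern for each of 2 members; others (*ST14*, *SPINK5*, *F2R*, *CDSN*, *DSG1*, *DSC1*, *NR3C1*, *KLK4* and the marker genes) were named after their values were seen. Whole reads were taken from the steps between low RPKM values, to within 0.01 reads. Gene positions came from GENCODE on GRCh37 and promoters from RefSeq on GRCh38.p14. *KLK12*, *KLK3* and protein sequences were not analysed here.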

Additional observations from a re-analysis of the deposited data

Results flagged for a closer look

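The changes against EV differed between the isoforms, by the limma test of TBX3iso2 against TBX3iso1, for 8 of the genes named. Many of the named genes were picked for a large change or after their values were seen, so this count is not a rate. Of all genes tested, 6.29% were called between the isoform lines. Cornification genes not named by the rule were called there too: *SPRR1B*, *SPRR2A*, *SPRR3*, *TGM1* and *CALML5*. *KLK7* was lower in both lines and lower still in TBX3iso2 (log2 difference −1.80, limma adjusted p = 6.53e-05), and so was *CASP14* (−1.33, adjusted p = 0.00115). *SPRR2D* (−3.33, adjusted p = 0.000168), *TGM5* (−2.49, adjusted p = 0.000175), *IVL* (−2.68, adjusted p = 0.000536) and *PI3* (−1.62, adjusted p = 0.000612) were higher than EV in TBX3iso1 and not in TBX3iso2. *SPRR2D*, *IVL*, *SPRR2A* and *SPRR3* passed the filter only through TBX3iso1, so the filter favored finding them higher there. *F2RL1* (0.83, limma adjusted p = 0.00215) and *F2R* (0.94, adjusted p = 0.00485) were higher in TBX3iso2 than in TBX3iso1. Without moderation of the variances the differences of *CASP14* (limma adjusted p = 0.0656), *IVL* (0.0521), *PI3* (0.0556) and *F2RL1* (0.0655) were not called. With a pseudocount of 1 RPKM the difference of *F2R* was 0.54, under 1.5-fold.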

How the results depend on the processing

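The calls of *KLK5* to *KLK10* against EV held in 192 of 192 checks, 16 alternatives for each gene and line, with a largest limma adjusted p of 0.0251, and the *KLK7* difference between the isoform lines held in all 16, from −1.89 to −1.40. With only 2 libraries per line, every test rests on a spread shared across lines and genes, and levels under 1 RPKM rest on few reads. When a line was left with 1 library, that library was assumed to vary like the others.

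Of the values that changed sign, none was called. *KLK5* between the isoform lines was −0.012 with median-ratio scaling and −0.021 to 0.10 when single libraries were left out. *KLK8* between them ran from −0.47 to 0.11 on leaving out. *KLK14* in TBX3iso1 was 0.068 with median-ratio scaling, 0.24 with quantile normalization and −0.22 to 0.21 on leaving out. *TGM5* in TBX3iso2 was 0.080 with quantile normalization and −0.26 to 0.047 on leaving out. The cause was not tested.

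The counts of called list genes moved more, since most lists had few genes tested. Without the filter, the other kallikreins had 1 called (0 before) in each line against EV, inhibitors 2 (1) between the isoform lines, and steroid receptors 2 (1) in TBX3iso2 and 1 (0) between the isoform lines. With a filter at 2 RPKM, which left fewer genes tested, activators had 1 (3) in each line, cornification genes 3 (9, 6 and 9) in TBX3iso1, TBX3iso2 and between them, steroid receptors 0 (1) in each line, and substrates 1 (2) between the isoform lines. With a pseudocount of 1 RPKM, substrates had 0 (1) in TBX3iso2 and 1 (2) between the isoform lines, cornification genes 2 (6) and steroid receptors 0 (1) in TBX3iso2; with 0.01 RPKM, steroid receptors had 2 in TBX3iso2. Without moderation of the variances, inhibitors had 2 (4) in TBX3iso1 and 0 (1) between the isoform lines, substrates 1 (2) between them, cornification genes 2 (6) in TBX3iso2 and 3 (9) between them, and steroid receptors 0 (1) in each line. Median-ratio scaling gave inhibitors 2 (1) between the isoform lines, substrates 2 (1) in TBX3iso1 and steroid receptors 2 (1) in TBX3iso2, and quantile normalization gave substrates 2 (1) and 3 (1) in TBX3iso1 and TBX3iso2. With only the lines compared, substrates had 2 (1) in TBX3iso2 and cluster neighbors 1 (0) in TBX3iso1.

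Leaving out single libraries gave inhibitors 2 to 4 in TBX3iso1 and 1 to 2 between the isoform lines, substrates 1 to 2 in each line and 2 to 4 between them, steroid receptors 1 to 2 in TBX3iso1, and cluster neighbors 0 to 1, 1 to 3 and 0 to 1 in TBX3iso1, TBX3iso2 and between them. Same-numbered libraries correlated in their deviations at 0.220 (EV and TBX3iso1), 0.114 (EV and TBX3iso2) and 0.499 (TBX3iso1 and TBX3iso2), but the numbers are not stated to mark a shared batch and there are only 2 of them. With the replicate number as a block, 2838 genes were called in TBX3iso1 (2757 without the block), 2795 (2720) in TBX3iso2 and 900 (805) between the isoform lines; substrates had 2 (1) in TBX3iso2, and no call on *KLK5* to *KLK14* changed.

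Over all genes, a pseudocount of 1 RPKM gave 1812 calls in TBX3iso1 and 419 between the isoform lines, no moderation 199 and a filter at 2 RPKM 504 between the isoform lines. The share of higher calls was 34.6% and 42.1% in TBX3iso1 and TBX3iso2, 46.6% and 46.7% with median-ratio scaling, and 49.0% and 49.6% with quantile normalization. For *KLK13* in both EV libraries, RPKM times the median transcript length gave 21.9 reads, the shortest transcript 6.68, the longest 32.17, and the steps between values, an alternative chosen after seeing the data, 18. The letters GGTGTGA were in the promoters of 0 of the 9 members searched, which leave out *KLK8*, against 2 for AGGTGT.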
